A study of Mus musculus with 6 samples.

Results

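Fibroblasts make and renew the matrix of the heart, and 9 genes known from their resting and activated states were followed in the left atrium of mice with a leaking mitral valve. The genes were Postn, Cthrc1, Fap, Meox1, Cilp, Ddah1, Pi16, Pcolce and Tcf21, taken by gene symbol from a table of 55471 genes. All 9 had 1 row each and passed the filter on low counts. Adult male C57BL/6J mice were operated on at 10 weeks of age. In the MR group (mitral regurgitation) the anterior leaflet of the mitral valve was punctured under echocardiographic guidance. In the Sham group the apex of the heart was punctured and the leaflet was left intact, so that hearts of both groups had been punctured. The left atrium was taken 2 weeks later, and poly(A) RNA of 3 Sham and 3 MR mice was sequenced as paired ends, 1 library a mouse.

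Gene counts summed to between 14124407 and 20039490 per library, so that 3 counts corresponded to 0.15 to 0.212 CPM (counts scaled to a common library size). Atrial muscle genes such as Myl7, Sln and Nppa were abundant in every library. The ventricular gene Irx4 and the lung genes Sftpc and Sftpb had 0 counts in all 6 libraries, and Myl2, the ventricular myosin light chain, averaged 0.735 ± 0.255 CPM in the Sham libraries and 1.64 ± 0.771 CPM in the MR libraries (SD, n = 3). Of the other 2 ventricular markers listed, Myl3, a myosin light chain, fell from 140 ± 15 to 51.1 ± 2.57 CPM and Hey2, a transcription factor, rose from 2.58 ± 0.071 to 4.54 ± 1.14 CPM (edgeR test, adjusted p = 9.75e-05 and 0.027). Ribosomal RNA took 2.15% to 3.97% of counts in Sham and 0.607% to 0.884% in MR, and mitochondrial genes 20.2% to 23.6% and 18.2% to 20.9%; with these and haemoglobin genes left out the 9 genes kept their calls. The tissue was whole atrium and not sorted fibroblasts, so that fewer cells of a type and less RNA per cell cannot be told apart.

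As background, resident cardiac fibroblasts descend largely from the epicardium under the transcription factor Tcf21. Under injury or load some of them become activated, secrete matricellular proteins such as periostin and process more collagen. Pi16 marks a progenitor-like fibroblast state found around vessels, and is usually higher at rest than after activation.

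The 9 genes did not move as one group. Meox1, Ddah1, Postn, Pcolce and Tcf21 rose in MR, Pi16 fell, and Cilp, Cthrc1 and Fap did not pass the test (quasi-likelihood test of edgeR; p adjusted over 15218 genes by Benjamini-Hochberg, threshold 0.05). The count was 5 of 9 higher, where 11.8% of all tested genes were higher, and 1 of 9 lower, where 10.6% were lower (22.4% in either direction). The median log2 fold change of MR against Sham was 0.67 over the 9 genes and 0.0016 over all tested genes. The 3 MR values lay wholly above or below the 3 Sham values in CPM for 6 of 9 genes, against 41.9% of all tested genes, and 7 of 9 had a fitted change above 0, against 50.1%. The genes were chosen with results of these data known, so these counts describe them. The label of activated fibroblast genes held only in part: Cthrc1 and Fap, which mark activated fibroblasts, did not pass the test, Cthrc1 at only 4 to 15 counts per library, and Tcf21, a gene of resident fibroblasts, was among those that rose.

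**Figure D1:**
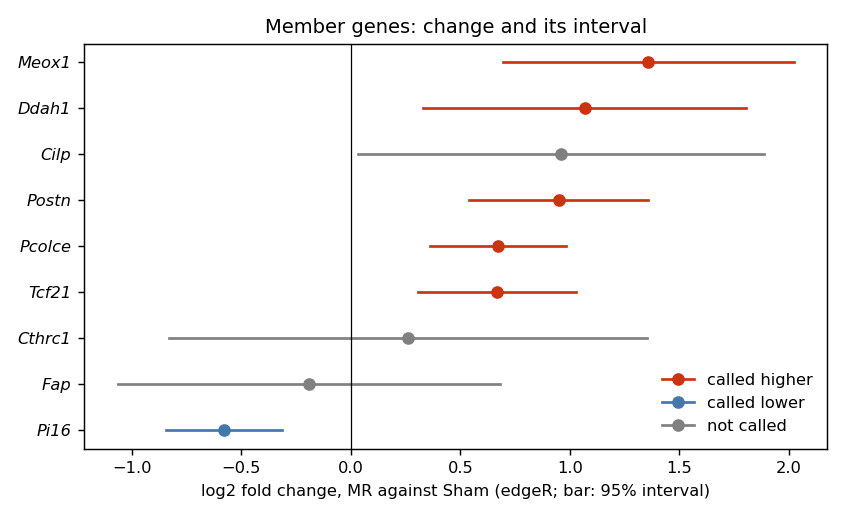
Fitted log2 fold change of MR against Sham for each of the 9 genes (horizontal axis; points, edgeR estimate; bars, 95% interval). The intervals of Meox1, Ddah1, Postn, Pcolce and Tcf21 lie above 0 and that of Pi16 below 0, while those of Cthrc1 and Fap span 0; Cilp, whose interval starts at 0.03, did not pass after adjustment.

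Among the secreted matrix proteins, Postn (ENSMUSG00000027750, chromosome 3) encodes periostin, a matricellular protein that binds collagen and integrins. It was at 47.5, 40.3 and 37.2 CPM in Sham libraries 1 to 3 and at 61.5, 106 and 73.6 CPM in MR libraries 1 to 3. Every MR library stood above every Sham library, MR 2 the most. The log2 fold change was 0.95 ± 0.18 (SE; edgeR test, adjusted p = 0.00779), and Postn passed under all 17 alternative settings tried. Pcolce (ENSMUSG00000029718, chromosome 5) encodes the enhancer of the proteases that cut the C-terminal propeptide from procollagen. Its level was 63.8, 59.5 and 72.7 CPM in Sham and 101, 125 and 86.1 CPM in MR, with no overlap. Pcolce rose by 0.67 ± 0.14 on the log2 scale (edgeR test, adjusted p = 0.0101). Its exons share 112 bases with Fbxo24 on the same strand, a gene with 2 to 15 counts per library, and 112 bases with an antisense transcript, so a small part of its reads is uncertain.

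Cilp (ENSMUSG00000042254, chromosome 9) encodes a matrix protein first known from cartilage that binds TGF-beta. It was at 9.38, 6.28 and 10.1 CPM in Sham and at 9.61, 31.1 and 9.78 CPM in MR. MR 2 stood alone in CPM, and MR 1 and MR 3 lay within the Sham range. In TPM (scaled for gene length and library size) MR 1 at 5.92 and MR 3 at 5.64 lay above the highest Sham library at 5.06. On that scale the median tested gene was itself 0.33 higher in MR in log2. The log2 fold change was 0.96 ± 0.42 (edgeR test, adjusted p = 0.124), and without MR 2 it was 0.18. Without MR 1 it was 1.21 and passed (edgeR test, adjusted p = 0.0491). Cthrc1 (ENSMUSG00000054196, chromosome 15) encodes a small secreted protein with a collagen-like stretch that marks the most activated fibroblasts of injured hearts. It had 8, 6 and 10 counts in Sham and 4, 15 and 13 counts in MR. The groups overlapped, and MR 1 was the lowest of all libraries. Its log2 fold change of 0.26 had a 95% interval from -0.83 to 1.35 (edgeR test, adjusted p = 0.738). A difference between the groups was not detectable at this depth.

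Of the 2 enzymes, Ddah1 (ENSMUSG00000028194, chromosome 3) degrades asymmetric dimethylarginine, an inhibitor of nitric oxide synthases, and is also made by cells other than fibroblasts. It was at 1.70, 2.19 and 2.1 CPM in Sham and at 2.62, 6.47 and 3.44 CPM in MR. All MR values were above the Sham values, with MR 1 close to them. It rose by 1.07 ± 0.33 on the log2 scale (edgeR test, adjusted p = 0.0437). The call rested on 91 counts in Sham and 210 in MR and ended without Sham 1, Sham 2, Sham 3 or MR 2 (edgeR test, adjusted p = 0.154, 0.0935, 0.0987 and 0.133). Without MR 2 the log2 fold change was 0.62. Fap (ENSMUSG00000000392, chromosome 2) encodes a membrane prolyl protease used as a marker of activated fibroblasts in hearts and tumours. Its level was 1.92, 2.55 and 1.81 CPM in Sham and 0.981, 3.14 and 1.40 CPM in MR. MR 2 was the highest library, and MR 1 and MR 3 were the lowest. The log2 fold change was -0.19 with a 95% interval from -1.06 to 0.68 (edgeR test, adjusted p = 0.759), and without MR 2 it was -0.78 (edgeR test, adjusted p = 0.131).

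Both transcription factors rose. Meox1 (ENSMUSG00000001493, chromosome 11), a homeobox factor that drives fibroblast activation in stressed mouse hearts, was at 12.2, 13.4 and 16.6 CPM in Sham and at 21.1, 56.0 and 30.7 CPM in MR. The groups did not overlap, but the MR libraries spread widely. Its log2 fold change of 1.36 ± 0.30 was the largest of the 9 genes (edgeR test, adjusted p = 0.0125). Without MR 2 it was 0.90 and still passed (edgeR test, adjusted p = 0.0114), and without Sham 1 it did not (edgeR test, adjusted p = 0.0658). A robust dispersion also ended the call (edgeR test, adjusted p = 0.0786). Tcf21 (ENSMUSG00000045680, chromosome 10), the basic helix-loop-helix factor of resident fibroblasts, was at 17.8, 15.8 and 15.9 CPM in Sham and at 24.0, 33.7 and 21.3 CPM in MR. The 3 Sham libraries lay close together and all MR libraries above them. Tcf21 rose by 0.67 ± 0.16 on the log2 scale (edgeR test, adjusted p = 0.018). That call ended without Sham 1, Sham 2 or Sham 3 (edgeR test, adjusted p = 0.0529, 0.0662 and 0.0612), whereas the log2 fold change stayed between 0.46 and 0.80 with 1 library left out.

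Pi16 (ENSMUSG00000024011, chromosome 17), which encodes a secreted peptidase inhibitor and is widely used as a marker of adventitial fibroblasts, went the other way. It was at 222, 207 and 221 CPM in Sham and at 166, 122 and 148 CPM in MR. The Sham libraries differed little, and MR 2, where the other 8 genes were highest, was the lowest for Pi16. The log2 fold change was -0.58 ± 0.12 (edgeR test, adjusted p = 0.00981), and the call held with any 1 library left out. On TPM, where the median tested gene was 0.33 higher in MR on the log2 scale, the fall was 0.25 and did not pass (limma adjusted p = 0.126). In TPM, MR 1 at 68.3 lay above Sham 2 at 64.0. Its exons share 222 bases with an antisense transcript.

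**Figure D2:**
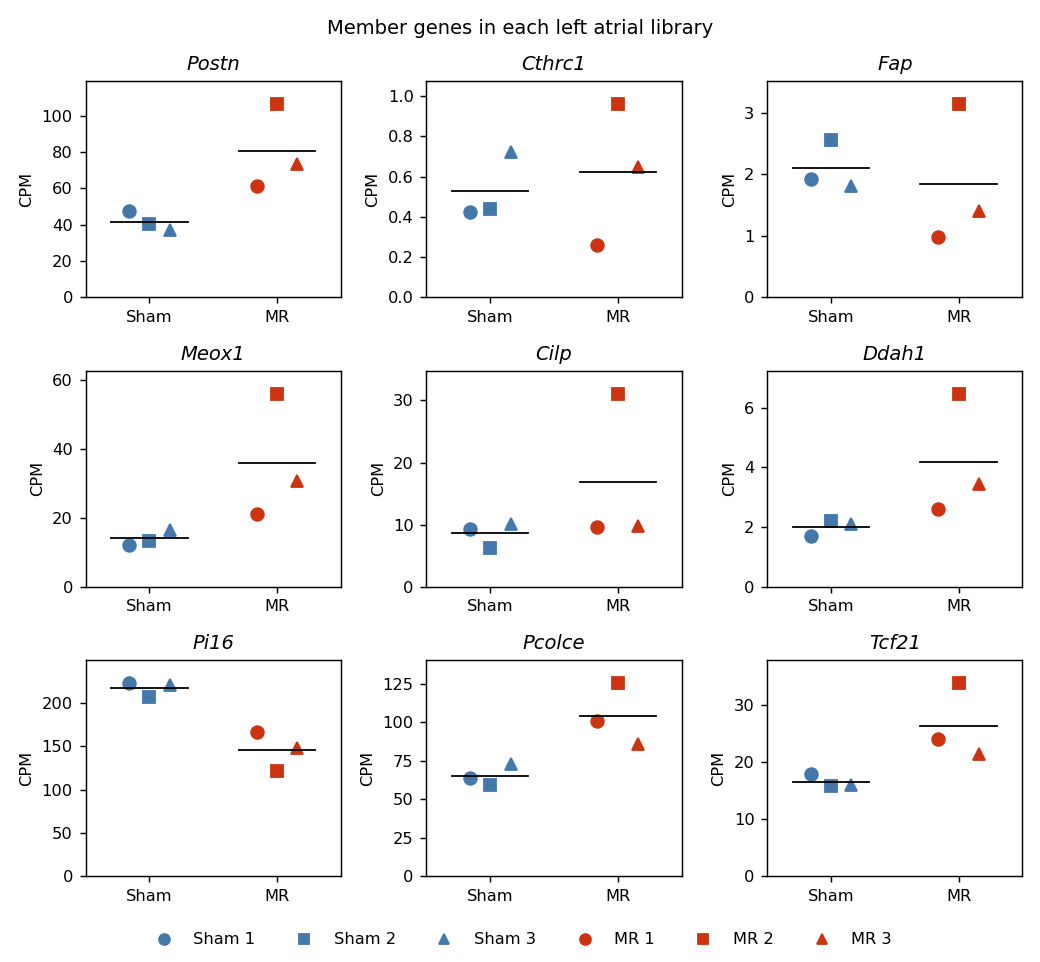
Level of each of the 9 genes in CPM on scaled library totals (vertical axes, each from 0) in the 3 Sham and 3 MR libraries; black lines are group means and symbols mark the library number. MR 2 (red square) is the highest library for every gene but Pi16, for which it is the lowest.

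For 3 genes of differing direction or role, the 250 bases before the start of transcription are shown, so that the promoter of the gene that fell can be read beside those of genes that rose. They are from RefSeq (build GRCm38.p6), written 5′ to 3′ on the gene's strand. Postn lies at chr3:54360857-54361106 (plus strand, the downstream of 2 listed starts), Pi16 at chr17:29318632-29318881 (plus strand) and Tcf21 at chr10:22820144-22820393 (minus strand). Capitals mark the SMAD box CAGAC or its reverse complement GTCTG, and the TATA box TATAAA.
Postn: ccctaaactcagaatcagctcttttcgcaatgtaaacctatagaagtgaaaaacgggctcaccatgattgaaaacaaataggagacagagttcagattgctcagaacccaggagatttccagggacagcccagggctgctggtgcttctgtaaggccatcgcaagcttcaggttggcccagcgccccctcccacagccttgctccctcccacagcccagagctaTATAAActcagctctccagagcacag
Pi16: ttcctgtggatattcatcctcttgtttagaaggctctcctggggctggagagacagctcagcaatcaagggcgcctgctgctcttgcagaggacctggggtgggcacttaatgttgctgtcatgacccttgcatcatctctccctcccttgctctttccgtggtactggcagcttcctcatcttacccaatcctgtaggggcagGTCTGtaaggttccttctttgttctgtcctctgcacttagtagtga
Tcf21: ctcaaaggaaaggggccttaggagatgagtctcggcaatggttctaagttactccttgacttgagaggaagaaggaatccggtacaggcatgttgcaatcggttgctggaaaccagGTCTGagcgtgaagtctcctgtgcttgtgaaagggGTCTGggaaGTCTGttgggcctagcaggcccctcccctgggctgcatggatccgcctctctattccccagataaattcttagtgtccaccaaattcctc
Entries were found for 6 of the 9 genes, not for Cthrc1, Fap and Meox1. Motifs were searched on both strands, and each share is of the 32851 listed promoters in windows of 250 bases. The SMAD box CAGAC stood in 42.2%, the AP-1 motif TGANTCA in 6.75% and the TEAD motif GGAATG in 12.6%. The homeobox core TAATTA stood in 4.84%, the E-box CAGCTG in 13%, the CArG box in 1.47% and the TATA box TATAAA in 12.4%. The Postn window held TATAAA at position -26, the Pi16 window held 1 SMAD box at -46, and the Tcf21 window held 3 at -134, -99 and -90, counted from the start. Of the windows not shown, those of Ddah1 and of the upstream Postn start held 1 SMAD box each, at -87 and -191, and CAGCTG stood in those of Cilp at -39 and Pcolce at -92. No matches overlapped. Such matches are of letters only.

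Compared per length, in the authors' TPM (scaled for gene length and library size), Pi16 was the highest of the 9 genes in Sham at 69.5 ± 4.95 TPM, followed by Pcolce at 35 ± 4.97 TPM. Tcf21 (14.3 TPM) and Meox1 (12.9 TPM) overlapped each other, then came Postn at 9.75 TPM and Cilp at 4.14 TPM. Ddah1, Fap and Cthrc1 were at 1.02, 0.751 and 0.683 TPM, each overlapping its neighbour. In MR the first place passed to Pcolce at 70.4 ± 15.7 TPM, which overlapped Pi16 at 58.6 ± 8.95 TPM. Meox1 came next at 41.7 ± 22 TPM, and each of the first 6 genes overlapped the next except Cilp, which stood clear of Ddah1. Ddah1 at 2.71 TPM stood clear of Cthrc1 and Fap, at 1.01 and 0.842 TPM.

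MR 2 was the highest of the MR libraries for 8 of the 9 genes. The same was true of 36.8% of all tested genes and of 66.6% of genes called higher. Several marker lists of other cells were also higher in MR in summed TPM, where the median tested gene was itself 0.33 higher in log2. Beside the counts called in each list, 11.8% of all tested genes rose and 10.6% fell. Mesothelial and epicardial markers were at 86.9 to 166 TPM in Sham and at 383, 646 and 387 TPM in MR 1 to 3, and 6 of 6 rose, among them Msln, Upk3b and Wt1. Macrophage markers were at 522 to 541 TPM in Sham and at 879 to 1322 TPM in MR, with 6 of 7 higher. Fat cell markers were at 55.9 to 65.8 TPM in Sham and at 291, 408 and 76.4 TPM in MR 1 to 3, with 3 of 4 tested higher. Of the 6 fat cell genes, Fabp4 alone had no overlap between the groups in TPM, and it did not pass the test. Endothelial markers (284 to 323 TPM in Sham, 432 to 524 TPM in MR) had 3 of 6 higher. The sums of smooth muscle and pericyte markers (363 to 452 TPM in Sham, 419 to 430.4 TPM in MR) overlapped between groups. Of these markers 1 of 7 was called higher (Cnn1) and 2 were called lower (Rgs5 and Kcnj8). Markers of dividing cells (0.928 to 2.99 TPM in Sham, 5.85 to 9.07 TPM in MR) had 3 of 5 higher. Valve, tendon or cartilage markers (4.04 to 5.07 TPM in Sham, 11.1 to 17.1 TPM in MR) had 3 of 3 tested higher. Schwann cell markers (8.02 to 10.8 TPM in Sham, 11.5 to 17.5 TPM in MR) had 1 of 5 higher. Left atrial muscle markers went the other way on scaled counts. Of 6 tested, 0 rose and 4 fell (Myl7, Myl4, Sln and Tnnt2), with a median of -0.52 on the log2 scale, near the -0.58 of Pi16, while in TPM each of the 6 genes overlapped between the groups. MR 2 was the highest library for the mesothelial, macrophage, fat cell and endothelial lists as well. No marker of these lists was at 0 in all libraries. Their part in the changes of the 9 genes was not tested. MR 3 had the least fat signal of the MR libraries. Its Adipoq (0.798 TPM), Plin1 (0.132 TPM) and Cidec (0.66 TPM) lay within the Sham range, and Fabp4 made up 74.6 of its 76.4 TPM. The mesothelial and macrophage sums of MR 3 nevertheless lay above those of all Sham libraries. With MR 3 as the only MR library, the log2 fold changes were 0.81 for Postn, 1.13 for Meox1 and -0.56 for Pi16. Those of Ddah1, Pcolce and Tcf21 were 0.79, 0.39 and 0.36. In that fit the spread of MR was taken to be that of Sham.

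**Figure D3:**
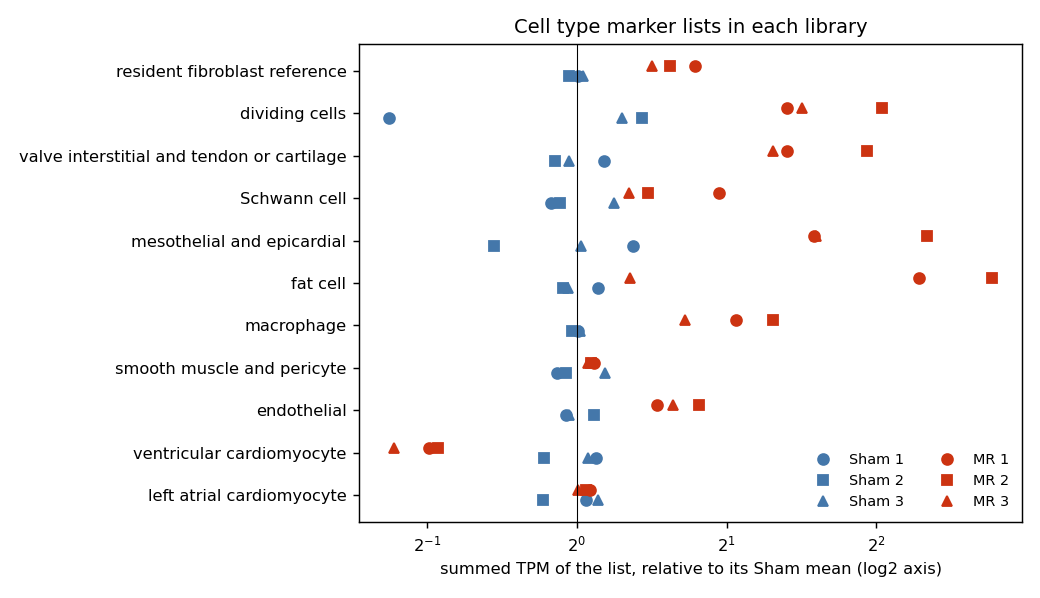
Summed TPM of each marker list in each library, divided by the list's Sham mean (log2 axis; symbols, library number; blue, Sham; red, MR). Mesothelial, dividing cell, valve and cartilage, macrophage, fat cell, endothelial, Schwann cell and fibroblast reference lists lie to the right in MR. The fat cell sum of MR 3 was mostly Fabp4, at 74.6 of 76.4 TPM. The ventricular list lies to the left, its sum being mostly Myl3 (140 of 142 TPM in Sham, 64.4 of 69.1 TPM in MR). The means of Myl2 and Hey2 were higher in MR. The TPM of the median tested gene was itself 0.33 higher in MR on the log2 scale.

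The 9 genes were also set against 12 genes that fibroblasts express at rest (Pdgfra, Ddr2, Thy1, Dcn, Lum, Dpt, Gsn, Mmp2, Fbln1, Col1a1, Col1a2 and Col3a1). Of these, 2 rose and 0 fell, where 11.8% of all tested genes rose and 10.6% fell. The median log2 fold change of the 12 was 0.33, with 9 above 0 and Pdgfra (-0.22), Mmp2 (-0.23) and Lum (-0.06) below 0. Those that rose were Dpt (0.43 ± 0.11) and Col1a2 (0.52 ± 0.15) on the log2 scale (edgeR test, adjusted p = 0.0218 and 0.0336). Both calls ended without Sham 1, Sham 2 or Sham 3, that of Dpt also without MR 3 and that of Col1a2 also without MR 2 (edgeR test, adjusted p = 0.0591 to 0.105). In TPM the median tested gene was itself 0.33 higher in MR on the log2 scale. The geometric mean of the 12 was 73.3 to 75.5 TPM in Sham and 101 to 125 TPM in MR. Taken relative to that mean within each library, which does not depend on library scaling, Meox1 was 1.00 higher in MR on the log2 scale and Postn 0.67 higher. Ddah1 (0.65, with 0.36 without MR 2 and 0.25 with a pseudocount of 1 TPM), Pcolce (0.42) and Tcf21 (0.40) were higher, and Pi16 was 0.83 lower. For these 6 genes the MR and Sham values did not overlap with the pseudocount of 0.1 TPM. Each two-sided exact permutation p was then 0.1, the smallest that 3 against 3 libraries allow (0.15 after Benjamini-Hochberg adjustment over 9 genes). For Ddah1 the exact permutation p reached 0.4 among the alternative settings. Cilp, Cthrc1 and Fap overlapped (exact permutation p = 0.6, 0.8 and 0.3).

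**Figure D4:**
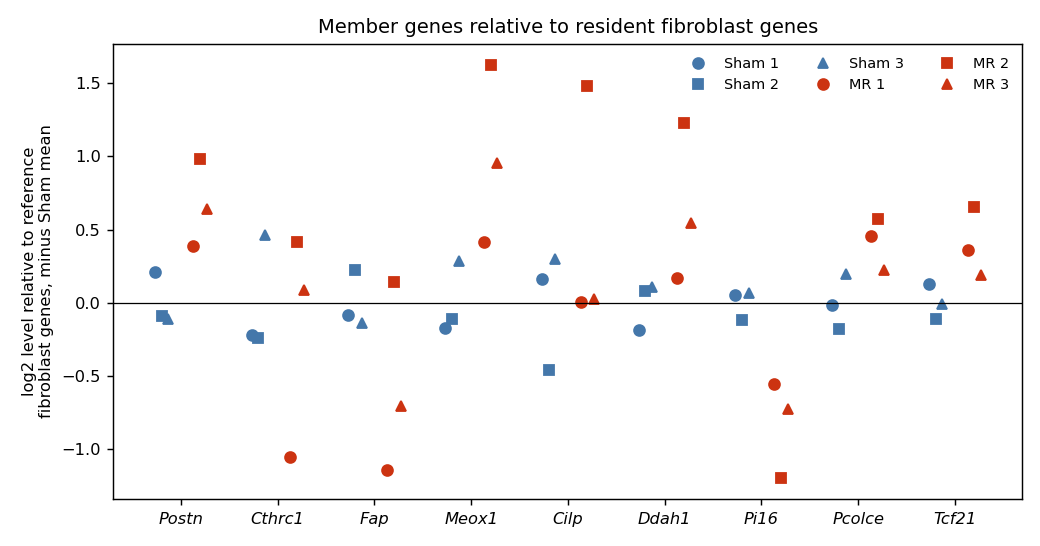
Log2 level of each of the 9 genes relative to the mean log2 TPM of 12 resident fibroblast genes in the same library, minus the Sham mean (vertical axis). The 3 MR libraries lie above the Sham libraries for Postn, Meox1, Ddah1, Pcolce and Tcf21 and below them for Pi16.

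The pathways around the 9 genes were read from lists chosen with earlier results of these data known. Beside the counts of each list, 11.8% of all tested genes rose and 10.6% fell. Of 20 tested other genes of activated fibroblasts and myofibroblasts, 9 rose and 1 fell (median 0.92 on the log2 scale). Fmod, a collagen-binding proteoglycan, rose from 33.2 ± 8.11 to 132 ± 22.9 CPM. Aebp1, which encodes a collagen-binding matrix protein, rose from 64.2 ± 9.43 to 240 ± 91.7 CPM (edgeR test, adjusted p = 0.000382 and 0.00157). The thrombospondin gene Thbs4 (3.47 ± 0.41, from 7 Sham counts) and Acta2, smooth muscle actin (1.07 ± 0.16), rose on the log2 scale. The 1 gene that fell was Cilp2, named after its values were seen, from 227 ± 21.8 to 128 ± 38 CPM (a change of -0.82 ± 0.19 on the log2 scale, edgeR test, adjusted p = 0.0145). This relative of Cilp was far more abundant than Cilp, at 107 TPM in Sham against 4.14 TPM. Its call ended without Sham 1 or Sham 3 (edgeR test, adjusted p = 0.0575 and 0.0536) and on TPM (limma adjusted p = 0.0699).

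The near relatives of the other genes were read in the same way. Meox2, Pcolce2 and Ddah2 had log2 fold changes of 0.14 ± 0.17, 0.19 ± 0.12 and 0.26 ± 0.15, and none passed (edgeR test, adjusted p = 0.589, 0.301 and 0.241). Dpp4, a dipeptidyl peptidase closely related to Fap, rose from 18.9 ± 5.23 to 43.2 ± 5.29 CPM (a log2 change of 1.18 ± 0.17, edgeR test, adjusted p = 0.00267). Of 5 tested prolyl peptidases 2 rose and 0 fell, the second being Dpp7 (0.47 ± 0.12), whose call ended without Sham 2, Sham 3, MR 2 or MR 3 (edgeR test, adjusted p = 0.0524 to 0.0713). Dpp4 is also a marker of the progenitor-like fibroblasts that Pi16 marks. Of 10 genes of that state 3 rose and 1 fell (median 0.12 on the log2 scale). Efemp1, fibulin-3, rose by 1.40 ± 0.23 and Igfbp6, an IGF-binding protein, by 0.85 ± 0.16. Clec3b, tetranectin, fell from 49.8 ± 6.75 to 35.2 ± 5.44 CPM (-0.51 ± 0.13, edgeR test, adjusted p = 0.0224). The fall of Clec3b did not pass without Sham 1, MR 2 or MR 3 (edgeR test, adjusted p = 0.066 to 0.0865), on library totals (0.106) or on TPM (limma, 0.354). Cd34, a further marker of this state, had 253 ± 15.7 and 256 ± 14 CPM in Sham and MR (0.02 ± 0.10, edgeR test, adjusted p = 0.908).

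Of 17 tested genes that process and fold procollagen, the pathway of Pcolce, only Plod3 (lysyl hydroxylase 3, 0.42 ± 0.09, edgeR test, adjusted p = 0.0126) rose and 0 fell, and without Sham 2 it did not pass (edgeR test, adjusted p = 0.0541). Bmp1, the protease that Pcolce enhances, had a log2 fold change of 0.24 ± 0.10 (edgeR test, adjusted p = 0.132). Scaled by library totals, which shifts the median gene by 0.21, 10 of these genes and 8 of the 12 resident fibroblast genes were called higher. Under that scaling 4025 of all 15218 tested genes were called higher. Of 12 tested transcription factors of fibroblasts and mesenchyme, 6 rose and 1 fell (median 0.75 on the log2 scale). Wt1 (1.56 ± 0.21) and Tbx18 (0.81 ± 0.14), both factors of the epicardium, and Runx2 (1.92 ± 0.45), a factor of bone-forming cells, rose, the last from 14 Sham counts and not without Sham 1, Sham 3 or MR 2 (edgeR test, adjusted p = 0.0515 to 0.0758). Wt1 also stands in the mesothelial list above. Prrx1, a homeobox factor of mesenchyme, fell from 67.5 ± 1.63 to 46.5 ± 1.1 CPM (-0.54 ± 0.08, edgeR test, adjusted p = 0.003), though not on TPM (limma adjusted p = 0.126). With Sham 1 or MR 2 removed, 2 transcription factors rose, and with Sham 2 or Sham 3 removed, 3.

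In the pathway of Ddah1, 2 of 9 tested genes of methylarginine and nitric oxide metabolism rose and 4 fell (2 without Sham 2). Nos3, the endothelial nitric oxide synthase, rose by 0.66 ± 0.09 on the log2 scale, and the arginine transporter gene Slc7a2 by 0.63 ± 0.13. Nos1, the neuronal form, fell from 3.72 ± 0.868 to 0.963 ± 0.587 CPM, and Gucy1a1, a subunit of the guanylate cyclase that nitric oxide activates, from 280 ± 20.1 to 156 ± 27.2 CPM (edgeR test, adjusted p = 0.00769 and 0.0033). Of 4 integrin subunits that bind periostin, Itgb3 rose (0.76 ± 0.18, edgeR test, adjusted p = 0.0157), but did not pass with Sham 1, Sham 2 or MR 2 removed (edgeR test, adjusted p = 0.0519 to 0.0681). Itgav, Itgb1 and Itgb5 did not pass, with log2 fold changes between -0.13 and 0.05.

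**Figure D5:**
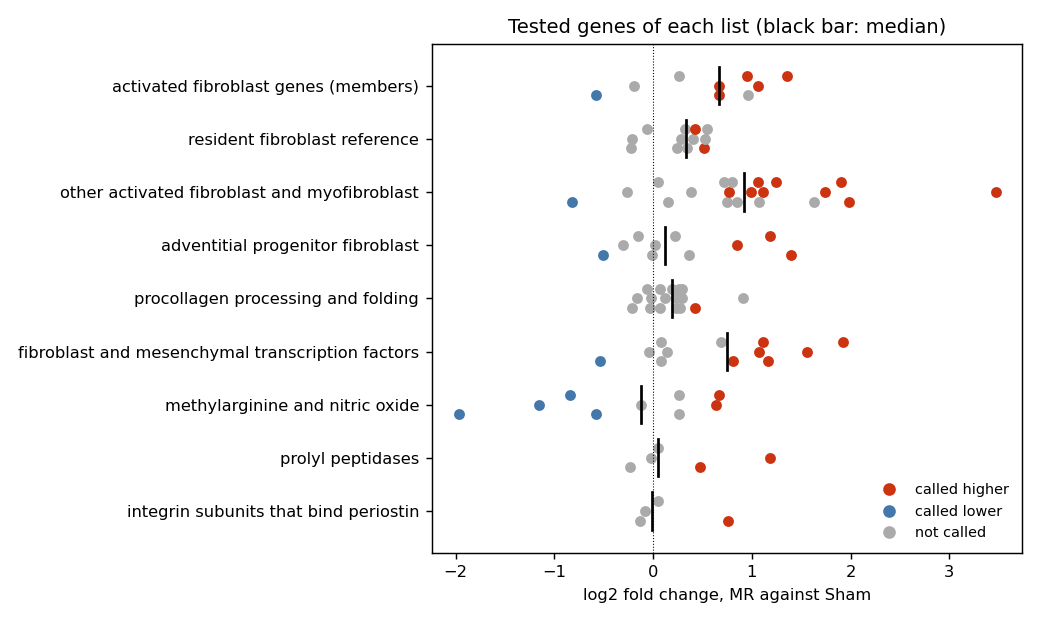
Fitted log2 fold change of MR against Sham (horizontal axis) for every tested gene of each list; red, called higher; blue, called lower; grey, not called; black bars, list medians. The medians of the other activated fibroblast genes (0.92) and of the transcription factors (0.75) lie farthest to the right.

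The genes most like each of the 6 changed genes were found by the root mean square difference of log2 CPM, centred on Sham, over the 6 libraries among 12919 genes. They were Met, Bex4 and Gcnt1 for Postn (0.0437, 0.0786 and 0.0855) and Gpr39, Unc5b and Mest for Meox1 (0.153, 0.186 and 0.188). Ddah1 was nearest to Rhoh, Fbxl7 and Tfcp2l1 (0.0686 to 0.138), Pcolce to Smarcd3, Fstl3 and Tspan5 (0.035 to 0.0669) and Tcf21 to Nbl1, Lyz2 and Trim47 (0.0511 to 0.0774). The nearest to Pi16 were Sdha, Etfa and Atp5f1b (0.0159 to 0.0259). In the authors' deposited table Cilp was called, with a log2 fold change of 1.28 and an adjusted p of 0.00666, and Postn had a log2 fold change of 1.35. The authors' deposited table gave the other genes the same calls as here at an adjusted p below 0.05, with Cthrc1 and Fap not passing (adjusted p of 0.52 and 0.809).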

How the data were processed

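The deposited table held counts per gene and library that were not normalized, per the file headers and their whole values. It also held TPM made by the authors, every column having the same total. The submitters' processing notes name HISAT2 2.1.0, featureCounts of Subread 2.0.1 and the build GRCm39; the annotation release and the strand setting were not given there. The log2 fold change and p-value columns are the authors', per the file headers, and the notes name DESeq2 with no role. All per-sample columns were used (0 unused). The supplied annotation (GENCODE, GRCm38) was used by gene identifier only.

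Counts were tested with edgeR 4.0.16 in R 4.3.3 (quasi-likelihood, TMM, filterByExpr, 2 groups of 3, no covariates), which kept 15218 genes. CPM are on TMM-scaled totals, given as mean ± SD (n = 3); SE is the coefficient over the square root of F. Levels relative to resident fibroblast genes used log2(TPM + 0.1). Alternatives were DESeq2 size factors, library totals, 2 other filters, DESeq2 1.42.0, limma 3.58.1 (voom; log2 TPM), a robust dispersion, mitochondrial, haemoglobin and rRNA genes left out, a replicate block, each library left out, and MR 3 alone. With MR 3 alone, its spread was taken to be that of the Sham group. Simulated counts (15038 genes tested) recovered 83% of 100 genes changed 2-fold and 99% of 100 changed 4-fold for MR against Sham, and 11 unchanged genes were called. The changed genes were drawn only from those above a minimum expected count. Cthrc1 did not reach that count, so these shares do not apply to it. Library pairs within a group had a chi-square per degree of freedom of 13 to 22.8, above sampling noise.

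The genes and lists were chosen with earlier results of these data known. The genes named from a list were up to 4 with the smallest p among those called. Dpp4, Runx1 and Wt1 stand in 2 lists each. Bmp1, Cd34, Itgav, Itgb1, Itgb5, Meox2, Pcolce2 and Ddah2 were named for their relation to the 9 genes.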

Additional observations from a re-analysis of the deposited data

How the results depend on the processing

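All 17 alternatives kept the direction of the 6 called genes, and Postn (0.70 to 1.25 on the log2 scale) passed in each. Log2 fold changes with 1 library left out ran from 0.70 to 1.09 for Postn, 0.90 to 1.61 for Meox1, 0.62 to 1.29 for Ddah1, 0.52 to 0.78 for Pcolce, 0.46 to 0.80 for Tcf21, -0.70 to -0.46 for Pi16, 0.18 to 1.23 for Cilp, -0.13 to 0.58 for Cthrc1 and -0.78 to 0.078 for Fap. Calls ended for Meox1 with a robust dispersion (1.36), for Ddah1 with limma-voom (0.96), for Pi16 on TPM (-0.25, so 0 genes were called lower), and with MR 3 alone for Ddah1 (0.79), Pcolce (0.39) and Tcf21 (0.36), leaving 2 called higher. Cilp passed with no filter on low counts (0.94) and without MR 1 (1.21). Fap changed sign on library totals (0.023) and on TPM (0.0057). The cause was not tested in any of these. Cthrc1 had no value under a filter of 1 CPM. Of the 9 genes, 2 to 6 were called higher with 1 library left out. The level of Cthrc1 relative to resident fibroblast genes ran from -0.48 to 0.25. Over all tested genes, 4025 were called higher and 574 lower on library totals, 5891 and 249 on TPM, and 563 and 413 with MR 3 alone; with 1 library left out, 838 to 1736 were higher and 745 to 1717 lower.

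With the replicate number as a block, 5 genes were called higher and 1 lower (Postn, adjusted p = 0.00432). Same-numbered libraries deviated together with correlations of -0.00981, -0.0101 and -0.186, and 0 of 3 correlated best with their own number. The labels do not say what the number marks, and these 3 correlations cannot settle whether it pairs the mice. Cthrc1, Fap and Ddah1 had only 4 to 101 counts per library. The MR libraries also spread, at 15, 49 and 28 counts for Fap and 40, 101 and 69 for Ddah1. How far depth or this spread limited the 3 genes was not tested.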

Other observations

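The 2 genes below were chosen after their values were seen. P4ha3, a catalytic subunit of the prolyl hydroxylase of collagen, did not pass the filter on low counts and was not tested. It had 7, 6 and 0 counts in Sham libraries 1 to 3 and 9, 105 and 33 counts in MR libraries 1 to 3. The groups did not overlap, MR 1 lay close to Sham, and MR 2 was again the highest library. Cnmd, which encodes the cartilage and valve protein chondromodulin, had 1, 0 and 0 counts in Sham and 28, 22 and 37 counts in MR, and here MR 2 was the lowest of the MR libraries.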
